A study of Rattus norvegicus with 2 samples.

Results

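Molecular chaperones, the proteins that fold other proteins and hold them soluble, were followed through their transcripts in cultured heart cells of newborn rats, prepared as ventricular cardiomyocytes. Members were chosen by gene symbol alone: the Hsp70, Hsp110, Hsp60, Hsp10 and small heat shock protein genes, the DnaJ (J protein) genes, the Bag exchange factors, the subunits of the cytosolic chaperonin, the protein disulfide isomerases, calreticulin, calnexin and the heat shock transcription factors. The rule found 95 genes of the 16846 in the table, and 83 of them had a mean of at least 1 RPM, the floor used below. RPM counts a gene's reads in every 1000000 that fell on genes, and it is always given for the control first. Of the 12 members under the floor, 10 had 0 reads in both libraries, and the other two, the J protein genes Dnajc5b and Dnajc6, had 0 and 10 reads and 13 and 0 reads.

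The series holds 2 poly(A) RNA-seq libraries, 1 per group. Ventricular cells of rats at postnatal day 0 were depleted of cells that stick quickly to plastic. They were then treated for 7 days with AAV2/9, an adeno-associated virus, bearing short hairpins that inhibit the let-7 and miR-99/100 families. This is the anti-miR library, and the second library is its control. One label calls the control an empty AAV and another a mock transduction, and the labels name no strain. With 1 library per group no difference has a replicate check, so every comparison describes these libraries. Each ratio is that of a gene's share of reads, anti-miR over control, with its exact Clopper-Pearson 95% interval in parentheses, which covers counting error only. Reads on genes numbered 16031780 in the control against 14815847 after the inhibitors. By counting error alone, a count of 0 allows up to 0.187 and 0.202 RPM.

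Markers of cardiomyocytes were scarce for cultures labelled as such. Of 11 measured markers, 4 (Myh6, Myl3, Ryr2 and Tnni3) had 0 reads in the control and 0 were at 0 in the anti-miR library. The list summed to 249.6 and 286 RPM, with 9 markers at a higher level in the anti-miR library and 2 at a lower one. Of the 7 markers above the floor 5 were higher, as were 5522 of all 10365 genes above it. Fibroblast markers summed to 10.2% and 10.3% of all reads and macrophage markers to 0.564% and 0.644%, where Lyz2 was higher (ratio 1.34) and Cd68 (0.811) and C1qa (0.673) lower. The 3 endothelial markers had 56 and 165 reads in all, a ratio of 3.19 (2.34 to 4.40). Tek had 56 and 114 of these reads, Pecam1 0 and 50, and Cdh5, under the floor, 0 and 1. The part of cell type content in the chaperone differences was not tested. In such mixed cultures fewer cells of a type and less RNA per cell cannot be told apart.

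Chaperones work by compartment. In the cytosol Hsp70 binds unfolded chains, J proteins deliver them and switch on its ATPase, and exchange factors such as Bag proteins and Hsp110 release ADP. The ring-shaped chaperonin TRiC folds actin and tubulin, and small heat shock proteins hold unfolded clients. In the endoplasmic reticulum (ER) the Hsp70 BiP, the lectins calnexin and calreticulin and the disulfide isomerases fold secreted proteins, and in mitochondria mortalin, Hsp60 and Hsp10 fold imported ones. The transcription factor Hsf1 induces the cytosolic set under heat or proteotoxic stress through heat shock elements, and the unfolded protein response induces the ER set through ER stress response elements.

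Both elements were searched for in the promoters of the members. Promoter windows of 300 bases, 250 before and 50 after the RefSeq start, were available on build GRCr8 for 75 members. The ER stress response element, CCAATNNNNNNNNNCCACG on either strand, stood in 22 of 33469 windows of all genes (0.0657%). It stood in those of 4 members, Hspa5, Calr, Canx and Dnajc3, and all 4 belong to the ER list, which had windows for 17 genes. The Hspa5 window, chr3:38452766-38453065 on the plus strand, is shown whole because Hspa5 encodes BiP, the classical target of that response, and shorter stretches are given for the other three. Capitals mark the element, which reads in reverse in Calr.
Hspa5: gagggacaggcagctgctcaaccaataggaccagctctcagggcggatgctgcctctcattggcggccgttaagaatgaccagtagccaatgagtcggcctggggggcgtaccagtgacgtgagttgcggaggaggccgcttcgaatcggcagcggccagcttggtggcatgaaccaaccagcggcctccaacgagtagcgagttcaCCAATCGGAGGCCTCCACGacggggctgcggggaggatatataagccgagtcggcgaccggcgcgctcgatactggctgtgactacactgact
Calr (chr19:40213123-40213165, plus strand): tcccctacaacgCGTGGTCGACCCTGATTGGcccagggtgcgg
Canx (chr10:35158057-35158099, minus strand): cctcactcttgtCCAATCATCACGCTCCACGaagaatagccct
Dnajc3 (chr15:102432522-102432564, plus strand): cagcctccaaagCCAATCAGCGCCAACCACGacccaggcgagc

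The heat shock element, searched as GAANNTTCNNGAA on either strand, stood in 267 of the 33469 windows (0.798%) and in those of 6 members. Windows were searched for 47 of 59 cytosolic members, and Hspa1b and Cryab were not among them. The 6 members with the element were the cytosolic Hspa8, Hsph1, Dnaja1 and Cct4 and the mitochondrial Hspd1 and Hspe1. Hspd1 (Hsp60) and Hspe1 (Hsp10) lie head to head, and their windows share 211 bases, so their element is the same stretch read from both sides. It holds overlapping matches on both strands. The Hspe1 window, chr9:64084077-64084376 on the plus strand, is shown whole for that reason, and the elements of Hspd1, Hsph1, Dnaja1 and Cct4 with 12 or fewer bases on each side. Capitals mark the element.
Hspe1: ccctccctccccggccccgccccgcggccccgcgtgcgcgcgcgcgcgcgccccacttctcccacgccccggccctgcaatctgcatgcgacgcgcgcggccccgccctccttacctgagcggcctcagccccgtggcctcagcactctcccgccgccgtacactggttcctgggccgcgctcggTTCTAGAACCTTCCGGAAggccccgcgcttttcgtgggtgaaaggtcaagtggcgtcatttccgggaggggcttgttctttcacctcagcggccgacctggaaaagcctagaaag
Hspd1 (chr9:64084250-64084287, minus strand): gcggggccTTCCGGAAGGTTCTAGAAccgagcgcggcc
Hsph1 (chr12:10427320-10427356, plus strand): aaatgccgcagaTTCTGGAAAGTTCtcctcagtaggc
Dnaja1 (chr5:60638401-60638437, plus strand): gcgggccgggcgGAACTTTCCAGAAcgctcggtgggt
Cct4 (chr14:101193070-101193106, plus strand): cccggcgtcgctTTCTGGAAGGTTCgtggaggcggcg
A match describes letters in a window and shows no binding.

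Across the family most transcripts stood at nearly the same level in both libraries. Of the 83 members above the floor, 7 (8.43%) were higher by 1.5-fold or more after the inhibitors, as were 10.8% of all genes past that floor. Another 7 (8.43%) were lower by as much, against 8.56% of all genes, and 69 lay within 1.5-fold. Both shares were near or under the background, so the count says nothing particular about chaperones. The median log2 ratio was −0.00 for members and 0.03 for all genes. Ratios here are log2((anti-miR + 0.1)/(control + 0.1)) of RPM, a scale that understates differences of low genes. By the looser rule that the counting interval excludes 1, 22 members (26.5%) were higher and 26 (31.3%) lower, against 33.6% and 28.1% of all genes. A fold of 1.2 was passed upward by 13 members and downward by 12, against 25.7% and 20.9% of all genes. The exact binomial test on reads, adjusted by Benjamini-Hochberg, called 20 members higher and 25 lower, against 31.7% and 26.4%.

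**Figure D1:**
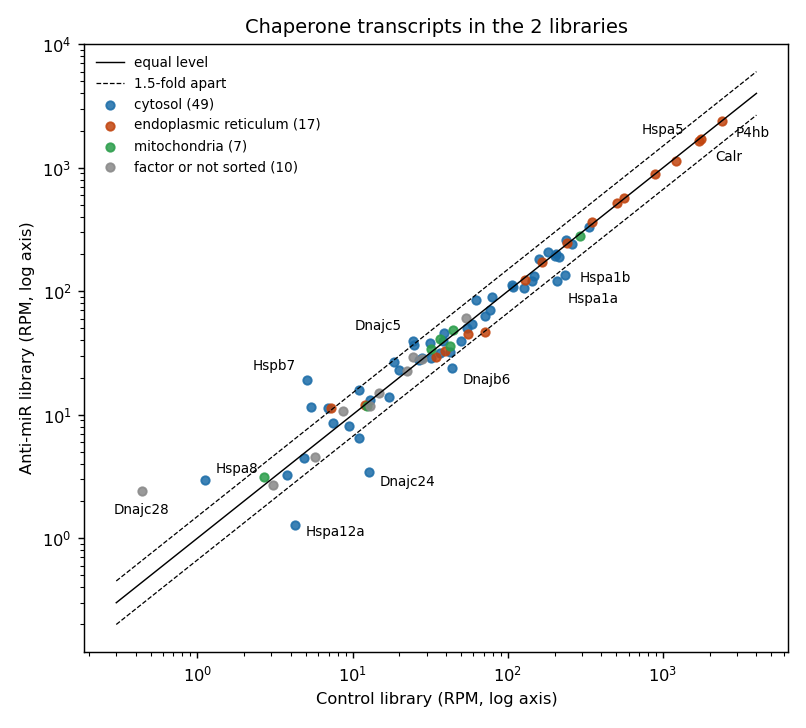
Level of the 83 members above the floor in the control library (x axis, RPM, log scale) and the anti-miR library (y axis, RPM, log scale), coloured by compartment, with the line of equal level and dashed lines at 1.5-fold. The ER genes P4hb, Calr and Hspa5 lie at the top on the line, Hspa1a and Hspa1b lie under the lower dashed line at over 100 RPM, and most other genes outside the dashed lines are at low levels.

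The ER set carried most of the family's reads, and its summed level was nearly the same in both libraries. Its 19 genes summed to 10100.3 and 9939.6 RPM, 69.3% and 69.9% of the reads of all members, with a ratio of 0.984 (0.977 to 0.991). Of 17 above the floor 15 lay within 1.5-fold, 1 was higher and 1 lower, and the median log2 ratio was −0.00. Level matters to this count, since 11 of the 17 had at least 100 RPM. Of all 1793 genes at that level 0.948% were 1.5-fold apart, and of the 11 ER members 0. The median size of the log2 ratio, sign aside, was 0.05 for these 11 and 0.12 for all genes of that level. At 10 to 100 RPM, 1 of 5 ER members (20%) stood apart, against 11.4% of all genes at that level. There the median size was 0.25 for the ER members and 0.23 for all genes.

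P4hb, a disulfide isomerase that is also the beta subunit of collagen prolyl hydroxylase, was the most abundant member, with 2386 and 2379 RPM and a ratio of 0.997. Calr, of calreticulin, had 1747 and 1707 RPM, and Canx, of calnexin, 889 and 891. Hspa5 had 1708 and 1650 RPM, a ratio of 0.966 with a counting interval that ended at 0.983. Pdia3, the isomerase that works with both lectins, had 1208 and 1143 RPM. These 5 genes made up 54.5% and 54.7% of all member reads, and Pdia3 stood farthest from 0 among them on the log2 scale, at −0.08. Pdia4 and Pdia6, further isomerases, had 504 and 520 RPM and 560 and 567 RPM. The lowest isomerase ratio was that of Pdia5, which went from 34.3 RPM to 29.5, or −0.22 in log2. Pdia2, a pancreatic isomerase, had 0 reads in both libraries.

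Among the ER partners of BiP, Hyou1, its exchange factor, had 347 and 363 RPM. The luminal J proteins Dnajb11, Dnajc3 and Dnajc10 had 165, 128 and 239.6 RPM in the control and log2 ratios of 0.05, −0.05 and 0.04. Dnajb9, a J protein that restrains the stress sensor Ire1, went from 55.3 RPM to 44.9 (0.812, 0.733 to 0.899). Hspa13, a small Hsp70 of microsomes, had 39.2 and 33.1 RPM.

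The 2 ER genes that stood apart encode membrane-bound J proteins. Dnajc14 went from 70.9 RPM to 46.4, or 1137 and 687 reads. Its ratio was 0.654 (0.594 to 0.719) and its log2 ratio −0.61. Each gene was also set against the 500 genes closest to its own level, whose central 95% of log2 ratios is called its like-level range. Dnajc14 lay below this range, which was −0.53 to 0.55. Dnajc18 lay above the 1.5-fold line, from 7.24 RPM to 11.4 (1.58, 1.24 to 2.01), but at that low level the range is wide, −1.13 to 1.28, and the gene lay inside it.

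**Figure D2:**
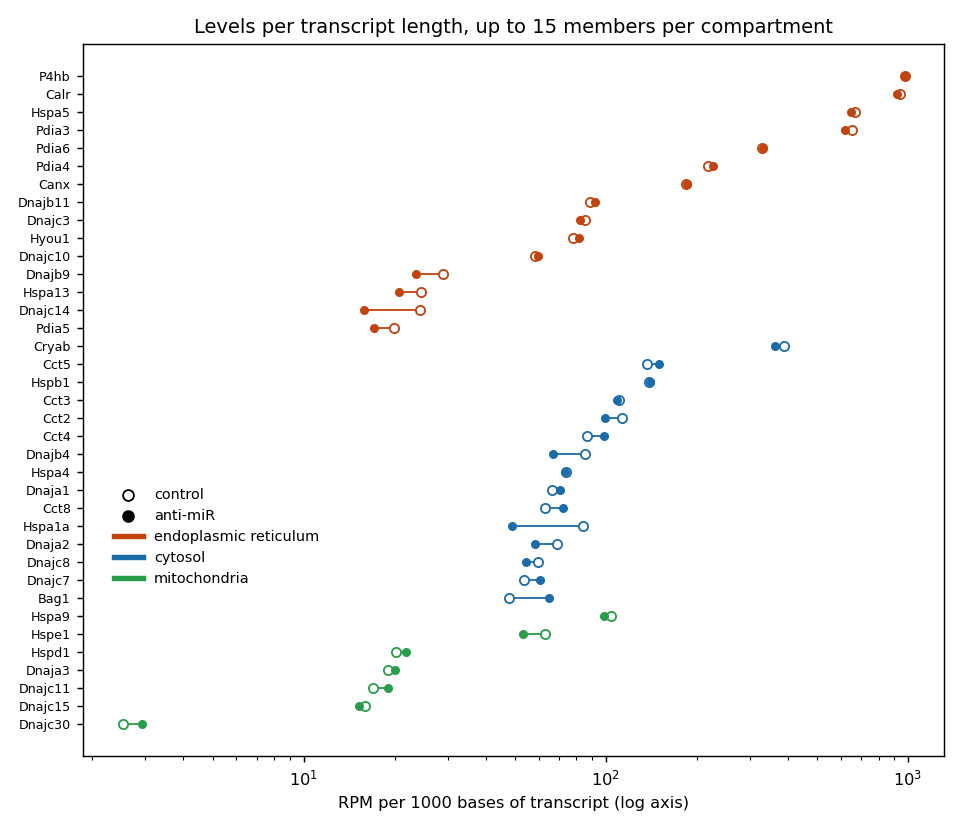
Level per 1000 bases of transcript (x axis, RPM per 1000 bases, log scale) of up to 15 members above the floor in each compartment, ordered by mean level, with open points for the control and filled points for the anti-miR library. P4hb, Calr, Hspa5 and Pdia3 lie farthest right, Cryab leads the cytosol and Hspa9 the mitochondria, and Hspa1a shows the widest gap among cytosolic genes of this level.

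The cytosolic set had a slightly lower total in the anti-miR library, and nearly the same total in both libraries without the stress-inducible Hsp70 genes. Its 59 genes summed to 3832 and 3636 RPM, a ratio of 0.949 (0.938 to 0.960). Without Hspa1a and Hspa1b the ratio was 0.997 (0.985 to 1.01), and without Hspa1b alone 0.973 (0.961 to 0.984). Both alternatives were chosen after the values were seen, and hold for RPM with no further scaling. Reads on Hspa1a can be counted for Hspa1b too, so the sum can hold them more than once. Of 49 genes past the floor, 38 lay within 1.5-fold, 5 (10.2%) higher and 6 (12.2%) lower, near the 10.8% and 8.56% of all genes. The median log2 ratio was −0.02, and its median size, sign aside, was 0.23, against 0.24 for all genes. Among those with 10 to 100 RPM, 3 of 24 (12.5%) stood apart, against 11.4% of all genes at that level.

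Hspa1a, the heat-inducible Hsp70, stood at 208 RPM without the inhibitors and at 121 with them. Hspa1b, its near-identical neighbour, had 233 and 136 RPM. The control was the higher library for both, with a ratio of 0.583 for each (0.550 to 0.617 for Hspa1a and 0.552 to 0.616 for Hspa1b). In log2 both stood at −0.78, lower than genes of like level, whose ranges were −0.33 to 0.37 for Hspa1a and −0.31 to 0.36 for Hspa1b. They were the 2 members of 27 with at least 100 RPM that stood 1.5-fold apart, among 17 such genes of 1793 in the table.

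The pair is not 2 measurements. On rn4, the build of the deposited table, Hspa1a spans chromosome 20 from 3955274 to 3957748, inside the Hspa1b transcript of 3953956 to 3959552 on the same strand. Reads on Hspa1a can therefore be counted for Hspa1b too. The reads of Hspa1b beyond those of Hspa1a numbered 407 and 221, about 10.9% and 11.0% of its own, with a ratio of 0.588 (0.497 to 0.694). Reads that fit both copies cannot be told apart.

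Values for 5 further genes known to respond to heat shock follow, chosen after they were seen. Hsph1, an Hsp110 exchange factor, had 148 and 133 RPM (0.897, 0.845 to 0.953). Dnajb1, the J protein induced with Hsp70, had 39.0 and 45.8 RPM, a ratio above 1 (1.18, 1.05 to 1.31). Hspb1 had 107 and 108 RPM, Bag3 71.5 and 63.0 RPM, and Dnaja1 106 and 113 RPM. Hsf1 itself had 53.5 and 60.6 RPM, a ratio of 1.13 (1.03 to 1.25). Hsf2 had 22.3 and 22.6 RPM and Hsf4 5.74 and 4.52 RPM, and all 3 factors lay within 1.5-fold.

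Hspa8, the constitutive Hsp70 of most cells, was nearly absent from the counts, with 18 and 44 reads, or 1.12 and 2.97 RPM. The ratio was 2.65, with a counting interval that lay above 1 and reached 4.86. Genes this low spread from −2.82 to 5.25 in log2, and Hspa8 lay among them. The table lists its transcript at 2 places in the genome, as it does for 3 further members. Cct6b and Dnajb12 of these had 0 reads in both libraries, while Dnajb4 had 49.8 and 39.1 RPM. Over all genes, 73 of 225 with more than 1 place had 0 reads in both libraries, and 5143 of 16621 with 1 place. The sources used here do not say what was done with reads that match several places. The part of this in the low count of Hspa8 was not tested, nor its part in the levels per transcript length of other genes.

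Of the other cytosolic Hsp70 and exchange factor genes most differed little. Hspa4, an Hsp110 relative, was the most abundant, with 333 and 329 RPM. Bag1, an exchange factor, led the genes over 5 RPM with a ratio of 1.35 (1.24 to 1.47), from 62.3 RPM to 84.1. Bag6, which guards hydrophobic tail segments, had 202 and 193 RPM. Hspa12a, a distant Hsp70, was lower, with 68 and 19 reads and a ratio of 0.302 (0.172 to 0.509). Its like-level range, −2.29 to 2.70, took it in. Of 17 genes in the group 13 lay within 1.5-fold, 1 (5.88%) was higher and 3 (17.6%) lower, against 10.8% and 8.56% of all genes. The lower genes were Hspa12a and the pair Hspa1a and Hspa1b, which are not separate measurements.

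Cytosolic J proteins, the largest group, had genes 1.5-fold apart in both directions. Of 18 past the floor, 12 lay within 1.5-fold, 3 higher and 3 lower, around a median log2 ratio of 0.04, and 19.4% of all genes past the floor were 1.5-fold apart in either direction. Of the 6 that stood apart, Dnajc12, Dnajc17, Dnajc24 and Dnajc27 had a mean of 1 to 10 RPM, where 53.2% of all genes did. A further 5 of the 25 in the table (Dnajb3, Dnajb7, Dnajb8, Dnajb13 and Dnajc5g) had 0 reads in both libraries. The most abundant, Dnaja2, had 127 and 107 RPM.

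On the lower side, Dnajb6, a J protein that blocks aggregation of polyglutamine proteins, had 43.4 and 24.0 RPM, or 696 and 355 reads. Its ratio was 0.552 (0.484 to 0.628), and its −0.85 in log2 was lower than its like-level range (−0.65 to 0.67). Dnajc24, needed to make diphthamide on elongation factor 2, had 12.7 and 3.44 RPM, or 203 and 51 reads. It had the lowest log2 ratio of all members above the floor, −1.85, below its range of −1.30 to 1.28, with a ratio of 0.272 (0.196 to 0.371). Dnajc17, a nuclear J protein, had 10.9 and 6.48 RPM (0.594, 0.458 to 0.766).

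On the higher side, Dnajc5, the cysteine string protein of secretory vesicles, had 24.5 and 39.4 RPM. Its ratio was 1.61 (1.41 to 1.83), and its 0.68 in log2 was just past the top of its like-level range (−0.70 to 0.66). Dnajc12, a partner of aromatic amino acid hydroxylases, had 5.43 and 11.6 RPM (2.14, 1.64 to 2.80). Dnajc27, which carries a Rab-like GTPase domain, had 6.99 and 11.4 RPM (1.63, 1.28 to 2.09). Both lay inside their like-level ranges. Dnajc2, a chaperone at the ribosome, and Dnajc21, a factor of ribosome assembly, were close to the 1.5-fold line at 1.48 (1.30 to 1.69) and 1.45 (1.18 to 1.77), both chosen after their values were seen.

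**Figure D3:**
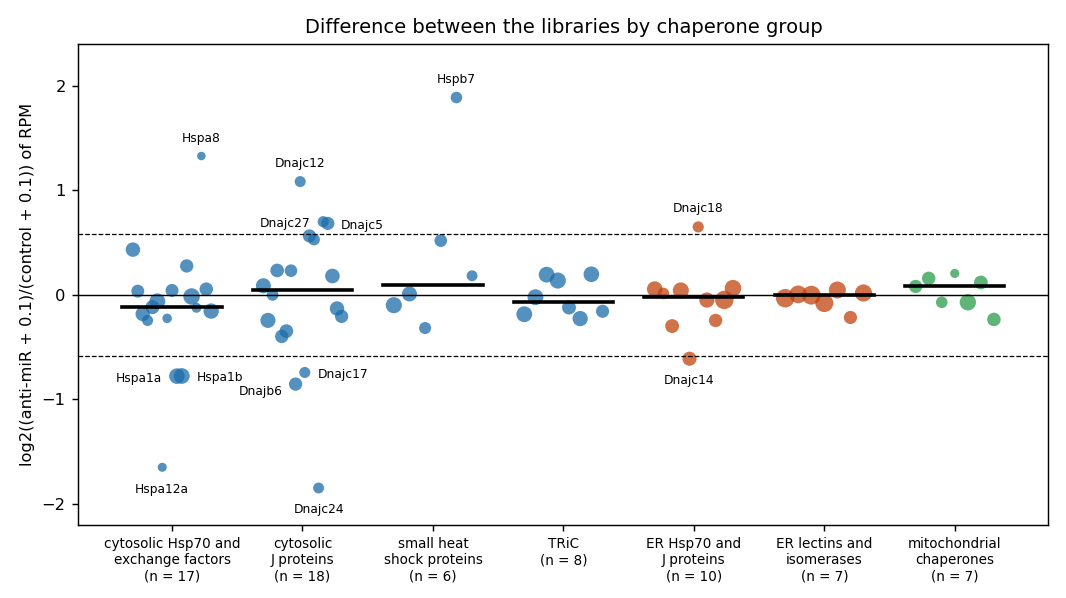
Log2 ratio of anti-miR over control on the RPM + 0.1 scale (y axis) for each member above the floor in 7 groups (x axis), where larger points are more abundant genes, thick bars are group medians and dashed lines mark 1.5-fold. Group medians run from −0.12 to 0.09, and genes outside the dashed lines fall in the cytosolic Hsp70, J protein and small heat shock protein groups and, with Dnajc14 and Dnajc18, among ER J proteins.

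Small heat shock proteins included the member with the second highest ratio among those above the floor. Cryab, of alphaB-crystallin, led the cytosol per transcript length, with 388 and 362 RPM per 1000 bases. In RPM it had 258 and 241, a ratio of 0.933 (0.892 to 0.976). Hspb1 had 139 and 140 RPM per 1000 bases. Hspb7, a small heat shock protein of heart and skeletal muscle, had 5.05 and 19.0 RPM, or 81 and 281 reads. Its ratio was 3.75 (2.92 to 4.87), and its 1.89 in log2 was well past its like-level range (−0.98 to 1.28).

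The other small heat shock protein genes had ratios on both sides of 1. Hspb6 had 18.6 and 26.7 RPM (1.43, 1.23 to 1.67). Hspb2, which lies head to head with Cryab on rn4 chromosome 8 with 1045 bases between them, had 17.3 and 13.8 RPM (0.801, 0.665 to 0.963). Hspb8, the partner of Bag3, had 7.49 and 8.50 RPM, while Hspb3 and the testis gene Hspb9 had 0 reads in both libraries. The cardiomyocyte markers given above were higher in 9 of 11 cases in the anti-miR library, from a summed level of 249.6 to 286 RPM. In 4 of these cases the control had 0 reads and the marker lay under the floor. Of the 7 above the floor 5 were higher, as were 5522 of all 10365 genes above it. Among the higher markers Myh7 had 6.18 and 11.5 RPM, and Tnnt2, the troponin T gene, 147 and 161 RPM. The markers that were lower were Myl2, a ventricular myosin light chain, with 30 and 5 reads (0.180, 0.0546 to 0.469), and Pln, of phospholamban, with 8.42 and 6.75 RPM. The part of cardiomyocyte content in the Hspb7 difference was not tested.

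TRiC holds its subunits in equal numbers, while their transcripts stood at unequal levels per length in both libraries. The 8 subunits with reads summed to 1224 and 1238 RPM, a ratio of 1.01 (0.992 to 1.03), and 0 of 8 were 1.5-fold apart. Per transcript length they ran from 17.6 (Tcp1) to 137 (Cct5) RPM per 1000 bases in the control, a 7.78-fold span, and from 15.8 to 150 in the anti-miR library. The 5 lowest, from Cct4 down through Cct8, Cct7, Cct6a and Tcp1, kept 1 order in both libraries, while Cct2 and Cct3 changed places. Cct8 had the highest ratio, 1.15 (1.08 to 1.21), and Cct7 the lowest, 0.854 (0.802 to 0.908). Cct6b, the testis form of the sixth subunit, had 0 reads.

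**Figure D4:**
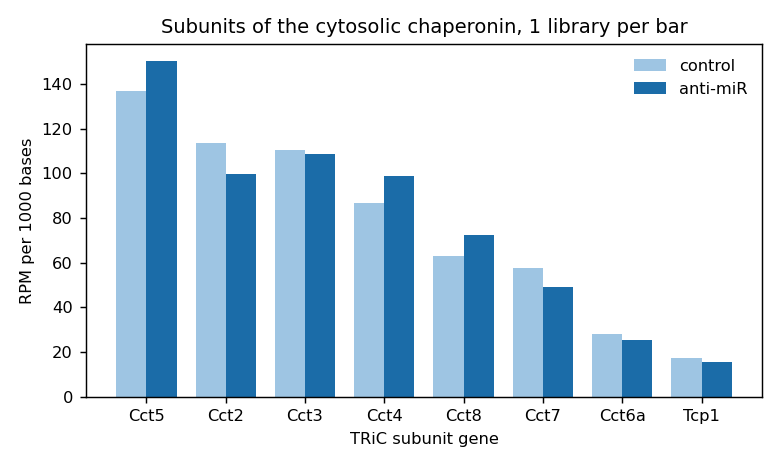
RPM per 1000 bases of transcript (y axis) of the 8 chaperonin subunit genes with reads (x axis), with pale bars for the control and dark bars for the anti-miR library. Cct5 is highest at 137 and 150 and Tcp1 lowest at 17.6 and 15.8, with the smaller gaps between libraries within each pair of bars.

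Mitochondrial chaperones differed little. All 7 genes lay within 1.5-fold, as did 80.6% of all genes above the floor. At 10 to 100 RPM, 0 of 5 stood apart, against 11.4% of all genes at that level. The log2 ratios ran from −0.24 to 0.20 with a median of 0.08. They summed to 462 and 451 RPM, a ratio of 0.976 (0.944 to 1.01), of which Hspa9, of mortalin, held 292 and 278. Hspd1 had 44.6 and 48.4 RPM (1.09, 0.977 to 1.21). Its neighbour Hspe1 stood at 42.2 and 35.8 (0.849, 0.756 to 0.952). On rn4 these genes face away from each other on chromosome 9 with 289 bases between them, and the library with the higher level was the anti-miR one for Hspd1 and the control for Hspe1. Per transcript length Hspe1 was above Hspd1, at 62.7 and 53.3 against 20.2 and 21.9 RPM per 1000 bases. Dnaja3, a J partner of mortalin, had 32.2 and 34.0 RPM. Dnajc11 led the genes over 5 RPM, at 1.12 (0.994 to 1.25). Dnajc15, of the import motor, had 12.4 and 11.7 RPM.

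Set side by side, the compartments differed in level more than in the contrast. Median levels above the floor were 85.3 and 82.4 RPM per 1000 bases for the 17 ER genes, 26.4 and 24.3 for the 49 cytosolic genes and 19.0 and 20.1 for the 7 mitochondrial genes. Median log2 ratios were −0.00, −0.02 and 0.08, and the median of all genes was 0.03. With 1 library per group the differences between these medians could not be tested. The log2 ratios ran from −1.85 to 1.89 in the cytosol, −0.61 to 0.65 in the ER and −0.24 to 0.20 in mitochondria, where also fewer genes were measured.

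**Figure D5:**
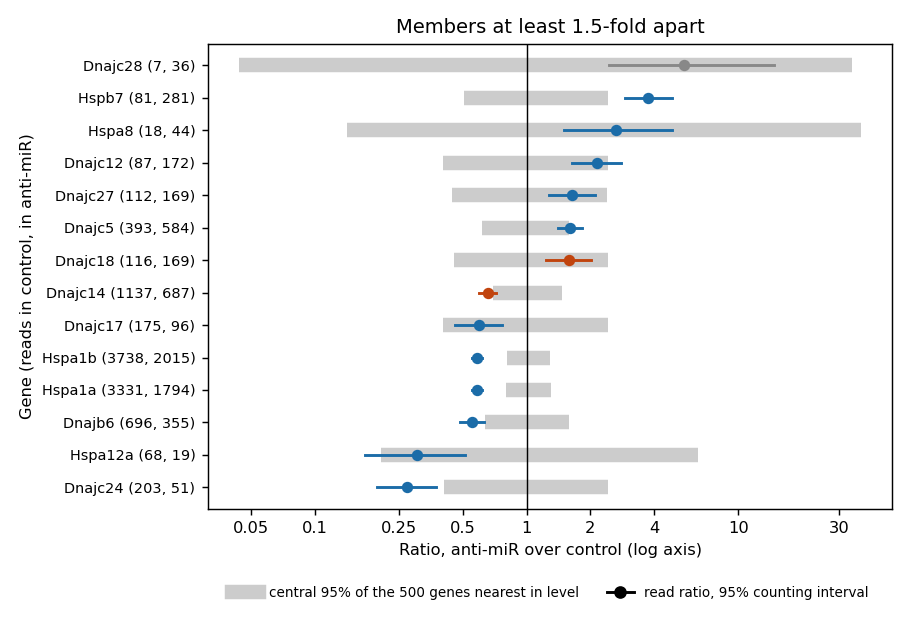
Ratio of reads, anti-miR over control (x axis, log scale), of the 14 members at least 1.5-fold apart, with the reads of each library beside the name, the 95% counting interval as a thin line and the range of the 500 genes nearest in level as a grey bar. Hspb7 and Dnajc5 lie above their grey bars, Hspa1a, Hspa1b, Dnajb6, Dnajc14 and Dnajc24 below, and the other 7 inside.

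Of the 83 members, 7 (8.43%) lay outside their like-level range, against 5.31% of all genes above the floor. They were Hspb7 and Dnajc5 above, and Hspa1a, Hspa1b, Dnajb6, Dnajc14 and Dnajc24 below. The share counts Hspa1a and Hspa1b as 2 members, though they are not separate measurements. Among matches of the rule not sorted into a compartment, the J protein gene Dnajc28 had the highest ratio of all members above the floor, 5.56 (2.44 to 14.8). It rested on 7 and 36 reads, and genes of its level spread from −4.51 to 5.11 in log2. Dnajc22, the most abundant of these, had 27.9 and 28.1 RPM, Dnajc4 had 13.0 and 11.7, and Hspbap1 had 8.67 and 10.8. Hspb11 carries the symbol Ift25 in RefSeq and is a ciliary transport protein, with 3.06 and 2.70 RPM.

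Further lists held genes that work beside these chaperones but fall outside the symbol rule, to be read against the 19.4% of all genes that were 1.5-fold apart in either direction. Of 14 genes of the cytosolic Hsp90 system above the floor, 0 were 1.5-fold apart, with a median log2 ratio of 0.03. Hsp90ab1, the constitutive form, had 644 and 655 RPM and Hsp90aa1, the inducible form, 25.8 and 30.9. Sugt1 was highest at 0.42 and St13, an Hsp70 cofactor, lowest at −0.54. All 4 prefoldin genes, whose products hand actin to TRiC, lay within 1.5-fold, from Pfdn2 at −0.18 to Pfdn5 at 0.09, and Pfdn1 was the most abundant at 64.0 and 66.7 RPM.

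In the list of 22 ER folding and stress response genes, 21 lay within 1.5-fold, 0 were higher and 1 was lower, around a median of −0.03. Serpinh1, the collagen chaperone Hsp47, stood at 1269 and 1293 RPM per 1000 bases, above P4hb at 979 and 977, the highest member. Hsp90b1, the ER form of Hsp90, had 1497 and 1453 RPM. Ero1l, an oxidase that recharges the isomerases, was highest at 0.40 and Ddit3, encoding the stress factor CHOP, the lowest over 5 RPM at −0.51, with 49.7 and 35.0 RPM. The 1 gene past 1.5-fold was Ero1lb, with 81 and 46 reads. Of 11 mitochondrial import and quality control genes 10 lay within 1.5-fold, 0 higher and 1 lower, around a median of −0.07. They summed to 734 and 691 RPM, a ratio of 0.941 (0.916 to 0.967). The counting intervals of 5 (45.5%) lay below 1 and that of 1 (9.09%) above, against 28.1% and 33.6% of all genes above the floor. The gene past 1.5-fold was Hscb, an iron-sulfur J protein, with 19.1 and 12.6 RPM. Yme1l1 was the most abundant at 214 and 203 RPM, and Timm44 highest at 0.32. Trap1, the mitochondrial Hsp90, had 78.6 and 60.3 RPM (0.768, 0.704 to 0.837).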

How the data were processed

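Per the file headers, the authors counted reads over exons of RefSeq transcripts on rat build rn4 with HOMER, on the strand opposite to the read and with 1 transcript kept per gene. Per the submitters' processing notes, CASAVA 1.8.2 and STAR 2.2.0c were used too, in roles that are not stated. What the authors deposited is a read signal per gene on a common scale, and the sources used here do not give the scaling step. Whole reads were recovered by dividing each column by the value of 1 read (0.962 for the control, 1.04 for anti-miR), and 100% of the values of at most 400 reads came out whole within 0.01 deposited units. An exact binomial test on these reads (Benjamini-Hochberg adjusted at 0.05), which compares the 2 libraries and not the conditions, called 3282 genes higher and 2736 lower of 10365.

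To get RPM, each deposited signal value was divided by its column's total and multiplied by 1000000. The floor was a mean of 1 RPM. Python 3.11.15, scipy 1.17.1 and edgeR 4.0.16 (TMM factors only) were used. The ratio and read test were tested on simulated data with counting error only, which cannot show how they perform with variation between cultures. The members, compartment lists and related lists were chosen with earlier results of these data known. Named genes were, in each list, the most abundant, the highest and lowest ratio among genes of at least 5 RPM, every member 1.5-fold apart and a few fixed members and Hsp90 genes. Other genes named, such as Pdia3, Dnajb9, Bag6 and Hspb6, fall outside this rule and were added for their roles with their values known. Hspg2 was not analysed here. Of the 95 members, 91 matched the RefSeq gene table by accession, promoter windows of the rest were looked up by symbol, and no coordinates were carried between builds.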

Additional observations from a re-analysis of the deposited data

How the results depend on the processing

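With a floor of 10 RPM, 2 members were 1.5-fold higher and 4 lower, since fewer genes were counted. A fold of 1.2 gave 13 and 12, and the exact binomial read test, Benjamini-Hochberg adjusted, gave 20 and 25. With TMM scaling, which shifts log2 ratios by −0.02, the summed ratio was 0.933 in the cytosol and 0.967 in the ER, and median-of-ratios scaling gave 0.933 and 0.968. Without Hspa9 the mitochondrial sum had a ratio of 1.02 (0.965 to 1.08). The cytosolic sum was 0.973 without Hspa1b and 0.997 without Hspa1a and Hspa1b, both without TMM scaling and chosen after seeing the data. Counting that pair once left 6 members lower. The median log2 ratios of cytosol, ER and mitochondria were −0.02, −0.00 and 0.08. No floor or a pseudocount of 1 RPM gave the same rounded values. They were −0.05, −0.03 and 0.05 with TMM scaling, and −0.05, −0.03 and 0.06 with median-of-ratios scaling. With a floor of 10 RPM they were −0.02, −0.02 and 0.004, the last over 6 genes. No member that was 1.5-fold apart changed direction. Of all genes of 1 to 10 RPM in the table, 53.2% stood 1.5-fold apart, against 11.4% from 10 to 100 RPM. The part of depth in this spread was not tested.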
